A study of Mus musculus with 4 samples.

Results

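The T cell receptor gene segments are the V, D, J and C genes from which the antigen receptors of T cells are assembled. They were chosen by symbol, matched through the gene identifier, as every gene whose name begins with Trav, Traj, Trac, Trbv, Trbd, Trbj, Trbc, Trdv, Trdd, Trdj, Trdc, Trgv, Trgj or Tcrg-. This rule found 268 of the 50600 genes in the deposited tables and used no measured value. Of these, 189 belong to the alpha chain, 53 to beta, 11 to delta and 15 to gamma. By kind there are 176 V, 4 D, 80 J and 8 C segments, and 44 of the 268 are annotated as pseudogenes.

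The cells were primary cells of the mouse strain C57BL/6NJ, labelled as T-helper 2 cells, the CD4 T cells known for making interleukins 4, 5 and 13. RNA was sequenced from biological replicates 1 to 4 of this 1 group, with no comparison group. All 4 share 1 donor identifier, sex was not collected and age is unknown, so p-values over the libraries measure only the spread between these samples, which may be technical. The assay is labelled total RNA-seq, the library protocol linked there is named for poly(A)+ RNA, and the file headers name the samples as hour 0 of a Th1 and Th2 time course, a time the labels do not give.

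A T cell joins 1 V segment to 1 J segment, with a D segment between them in the beta and delta chains, by cutting and rejoining its own DNA. The joined exon is spliced to a C exon, and the resulting chains pair as alpha with beta or as gamma with delta. CD4 helper T cells carry the alpha-beta receptor, and each clone usually expresses 1 beta chain and 1 or a pair of alpha chains. The germline V segment codes for most of the variable domain. The J segment adds its end, where the motif Phe-Gly-X-Gly closes the loop that contacts antigen.

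The short germline segments that held counts show what there is to be counted. The 6 J segments with the most counts are set out here with their GRCm38 position, strand and count over the 4 libraries, read from GENCODE M21 transcripts. Capitals mark the letters TTCGGNNNNGGN or TTTGGNNNNGGN, which encode the Phe-Gly-X-Gly motif, searched on both strands.
Trbj2-7, chr6:41543810-41543856, plus strand, 18 counts: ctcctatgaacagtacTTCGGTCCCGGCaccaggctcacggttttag
Trbj1-3, chr6:41534323-41534376, plus strand, 16 counts: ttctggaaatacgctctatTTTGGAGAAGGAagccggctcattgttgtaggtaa
Traj41, chr14:54176271-54176325, plus strand, 14 counts: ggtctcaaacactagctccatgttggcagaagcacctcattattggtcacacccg
Trbj1-4, chr6:41534811-41534861, plus strand, 11 counts: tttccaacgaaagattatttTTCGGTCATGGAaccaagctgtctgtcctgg
Traj25, chr14:54194815-54194871, plus strand, 10 counts: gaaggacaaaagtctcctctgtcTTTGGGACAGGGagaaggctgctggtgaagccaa
Traj7, chr14:54211470-54211528, plus strand, 10 counts: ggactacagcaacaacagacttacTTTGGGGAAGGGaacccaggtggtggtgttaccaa
Traj41 is the only one of these 6 without the letters searched. Over all 80 J segments, 56 (70.0%) hold them on the coding strand and none on the other strand.

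The D segments are shorter still, and their full germline sequences are given here.
Trbd1, chr6:41533201-41533212, plus strand: gggacagggggc
Trbd2, chr6:41542163-41542176, plus strand: gggactgggggggc
Trdd1, chr14:54113468-54113478, plus strand: atggcatatca
Trdd2, chr14:54122226-54122241, plus strand: atcggagggatacgag

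For the V segments, the last 45 germline bases are given of the leading segment of the delta and of the beta chain, of the 4 leading alpha segments, and of both inverted segments with counts. Capitals mark TGTGC where it occurs in the last 25 bases. Its TGT encodes the conserved cysteine at the start of the loop that contacts antigen.
Trdv2-2, chr14:53961558-53961602, plus strand: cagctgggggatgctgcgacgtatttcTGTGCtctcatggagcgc
Trbv13-2, chr6:41121788-41121832, plus strand: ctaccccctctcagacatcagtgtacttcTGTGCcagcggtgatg
Trav13n-4, chr14:53364062-53364106, plus strand: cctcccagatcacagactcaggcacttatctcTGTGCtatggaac
Trav9-1, chr14:53488523-53488567, plus strand: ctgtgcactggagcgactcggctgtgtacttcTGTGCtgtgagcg
Trav9-2, chr14:53591470-53591514, plus strand: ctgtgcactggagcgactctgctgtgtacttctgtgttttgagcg
Trav9n-1, chr14:53102221-53102265, plus strand: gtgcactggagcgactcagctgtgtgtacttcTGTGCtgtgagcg
Trdv5, chr14:54148662-54148706, minus strand: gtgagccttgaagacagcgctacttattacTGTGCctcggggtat
Trbv31, chr6:41557693-41557737, minus strand: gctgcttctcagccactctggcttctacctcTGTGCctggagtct
Over all 176 V segments, 135 (76.7%) hold TGTGC there, 114 of the 142 V genes and 21 of the 34 V pseudogenes. Among the 7 set out above that hold it are both inverted segments.

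The 4 libraries held 1452053 to 2351916 counts each, and receptor segments took 0.0210% to 0.0287% of them. A count of 0 in a library allows up to 3 counts, or 1.28 to 2.07 CPM (the count scaled to a library total of 1e+06). Fragments were counted only on the annotated strand, and whether that setting matches the library kit is not given in the sources used here. Genes with an exon overlapping a gene of the other strand were 16.2% of all genes and held 88.6% ± 1.06 of all counts. The 7 receptor segments with such an overlap were 2.61% of the receptor segments and held 10.7% ± 3.75 of the receptor counts (SD, n = 4). In both sets the share of counts was thus above the share of genes. The values are therefore fragments on the annotated strand and not transcript levels, and the part of the strand setting in them was not tested. No library was a copy of another: the chi-square statistic of each of the 6 library pairs lay between 6.29 and 24.8 times its degrees of freedom.

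The label was checked against marker genes. All 11 listed T cell markers reached a mean of 1 TPM (counts per exon length, scaled to 1e+06 per library). Of all genes 21.6% did so, and of protein-coding genes 34.0%. Among the 11 were Cd4 at 29.6 ± 7.96 TPM and Cd3d at 40.9 ± 9.13 TPM (SD, n = 4). Of 4 CD8 T cell markers, the chain gene Cd8a had 1 count in all and the other 3 reached 1 TPM, Cd8b1 at 1.34 ± 1.56 TPM on 9 counts, Eomes at 1.29 ± 1.58 TPM and Klrk1 at 4.67 ± 1.56 TPM. Of 11 B cell markers, 7 had no count, against 66.4% of all genes and 9709 of 21764 protein-coding genes. Cd79a had 39.0 ± 3.91 TPM and Ighm had 22.7 ± 7.53 TPM. The part of B cells in the receptor values was not tested. Cd4 and the other listed T cell markers were thus present. Cd8a, Cd8b1 and Eomes lay below every one of them, while Klrk1 lay above the lowest, Cd28 at 4.49 ± 0.79 TPM. None of the markers used separates T-helper 2 cells from other CD4 T cells.

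Receptor segments were detected unevenly. At least 1 count over the 4 libraries was present for 127 of the 268 (47.4%), against 33.6% of all genes. At least 10 counts were held by 34 segments (12.7%), against 23.4% of all genes, and a count in every library by 23 (8.58%), against 20.3%. A larger share of receptor segments than of all genes had some count, and a smaller share reached 10 counts or a count in every library. Of the rest, 141 had none and 55 had only 1 to 3 counts. For immunoglobulin segments, the B cell counterparts assembled in the same way, 17 of 395 (4.30%) had a count, with 229 of their 324 counts in Ighm. Among V segments alone, 83 of 176 T cell receptor V segments had a count, against 7 of 348 immunoglobulin V segments.

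The 268 segments held 448, 643, 551 and 340 counts in replicates 1 to 4, or 251 ± 35.2 CPM (SD, n = 4). The beta chain held 941 of the 1982 counts, alpha 842, delta 197 and gamma 2. V segments held 1003 counts, C genes 791, J segments 188 and D segments 0. In bulk RNA, fewer cells that use a segment and less RNA per cell cannot be told apart.

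The constant genes code for the part of each chain that anchors the receptor in the membrane, and every complete chain contains 1 of them. Trac, the only alpha constant gene (chr14:54220521-54224206), had 62, 96, 93 and 65 counts in replicates 1 to 4, which is 66.0 ± 13.5 TPM (SD, n = 4). Trbc1 (chr6:41538218-41539881) had 33, 73, 59 and 44 counts, or 54.5 ± 16.04 TPM. Trbc2 (chr6:41546730-41548352) had 55, 70, 47 and 29 counts, or 54.8 ± 10.1 TPM. The alpha and beta constant genes had counts in every library, and the lowest TPM of any of them, 30.7 for Trbc1 in replicate 1, lay above the highest of Trdc.

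Trdc, the delta constant gene (chr14:54142851-54148868), had 10, 16, 34 and 4 counts over 3865 exon bases, or 3.10 ± 2.52 TPM. Replicate 3 was highest and replicate 4 lowest. Per length, Trac was 20.4-fold above Trdc over the summed counts (95% interval 15.6 to 27.1, counting error only). The log2 ratio per library averaged 4.65 ± 1.01 and was positive in 4 of 4 libraries (exact two-sided sign-flip permutation, p = 0.125, the smallest that 4 libraries can give).

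The gamma constant genes were nearly empty. Tcrg-C1 had 1 count, in replicate 2, and Tcrg-C2, Tcrg-C3 and Tcrg-C4 had none. Trbc1 and Trbc2 together held 410 counts, 88, 143, 106 and 73 in replicates 1 to 4, against 1 count for the 4 gamma constant genes. Per mean exon length of each set, the ratio over all counts was 494-fold with a counting interval of 88.2 to 19562, a width set by the 1 gamma count. The beta sum was above the gamma sum in 4 of 4 libraries.

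**Figure D1:**
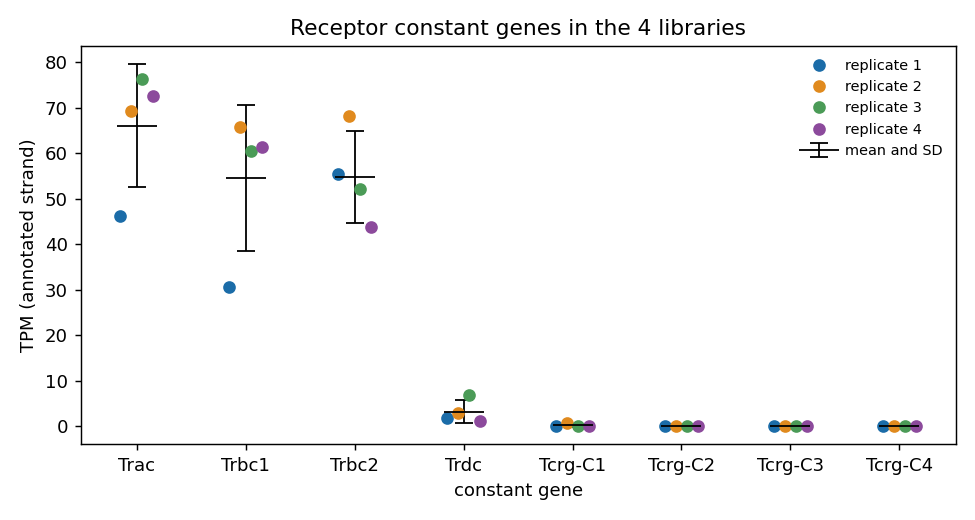
TPM on the annotated strand (y axis) of each receptor constant gene (x axis), with 1 point per library and the mean and SD as bars (n = 4). Trac, Trbc1 and Trbc2 lie between 30.7 and 76.2 TPM, Trdc at 6.74 TPM or below, and the gamma constant genes at or near 0.

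Trbc1 and Trbc2 follow separate clusters of D and J segments, and their proteins are nearly identical. Their coding sequences of 518 bases matched at 495 positions (95.6%), with 23 substitutions and no gap. Of the substitutions, 10 fall in the stretch from coding position 438 to 497, printed here as the 60 bases within 1 exon of each gene that hold the most differences, with the differing bases in capitals.
Trbc1, chr6:41539273-41539332, plus strand: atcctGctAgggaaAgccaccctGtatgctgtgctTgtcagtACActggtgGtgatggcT
Trbc2, chr6:41547816-41547875, plus strand: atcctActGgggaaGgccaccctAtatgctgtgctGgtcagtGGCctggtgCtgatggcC
Of the 50-base windows in their transcripts, 283 occur in both genes. These make up 40.5% of the windows of Trbc1 and 44.0% of those of Trbc2, so fragments from them may be missing from both. The counts of both genes are uncertain for that reason.

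Trbc1 stood at 0.961 of Trbc2 per length over all counts (95% interval 0.788 to 1.17, counting error only). The log2 ratio averaged -0.05 ± 0.58 and was positive in 2 libraries and negative in 2 (exact two-sided sign-flip permutation, p = 0.875). Library by library it was -0.85, -0.05, 0.21 and 0.49 in replicates 1 to 4. No common direction was measured, and without replicate 1 the mean ratio was 0.22. The J segments of the 2 clusters also varied. The 7 Trbj1 segments had 4, 20, 15 and 2 counts in replicates 1 to 4, and the 7 Trbj2 segments had 18, 9, 10 and 12. Replicate 1 had more counts in Trbj2 and Trbc2 than in Trbj1 and Trbc1, while replicate 4 had more in Trbj2 but fewer in Trbc2.

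The beta V segments held 103, 172, 89 and 77 counts in replicates 1 to 4. Trbv13-2 (chr6:41121396-41121832) led with 32, 23, 17 and 16 counts, or 49.6 ± 11.5 TPM (SD, n = 4). Its share of all Trbv counts averaged 21.1% ± 7.38 over the libraries, and pooled it was 19.95% (exact 95% interval 16.3 to 24.0). It was the top Trbv segment in 3 of 4 libraries and among the top 5 in all 4.

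The exception was replicate 2, where Trbv2 led. Trbv2 had 3, 24, 9 and 11 counts, or 16.3 ± 10.8 TPM, and was low in replicate 1. Trbv1 showed a like spread, with 2, 18, 8 and 8 counts. Trbv13-1, of the same family as Trbv13-2, had 9, 14, 8 and 4 counts. Trbv15 went another way, with 16 of its 29 counts in replicate 1 and 1 in replicate 3. The 4 leading Trbv segments together held 206 of 441 counts (46.7%).

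Beta V pseudogenes, which cannot code for a full variable domain, were mostly empty. A count was present for 20 of 22 beta V genes and 2 of 13 beta V pseudogenes. The V genes in the common orientation had 91, 172, 69 and 68 counts in replicates 1 to 4, and the pseudogenes had 8, 0, 8 and 6. Per exon length that was 8.68-fold over the summed counts (95% interval 5.65 to 14.0, counting error only), and the V genes were denser in 4 of 4 libraries. The pseudogene counts came from Trbv24, with 8, 0, 8 and 2, and Trbv22, with 4 in replicate 4. The 2 V genes without a count were Trbv4 and Trbv30. Of Trbv4, 295 of its 393 exon bases also lie in exons of the lincRNA gene 5830405F06Rik on the same strand. There a fragment could not be given to 1 gene. Trbv5 has 292 of its 368 exon bases in the same lincRNA gene and had 3 counts. The part of this overlap in the value of Trbv4 was not tested.

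**Figure D2:**
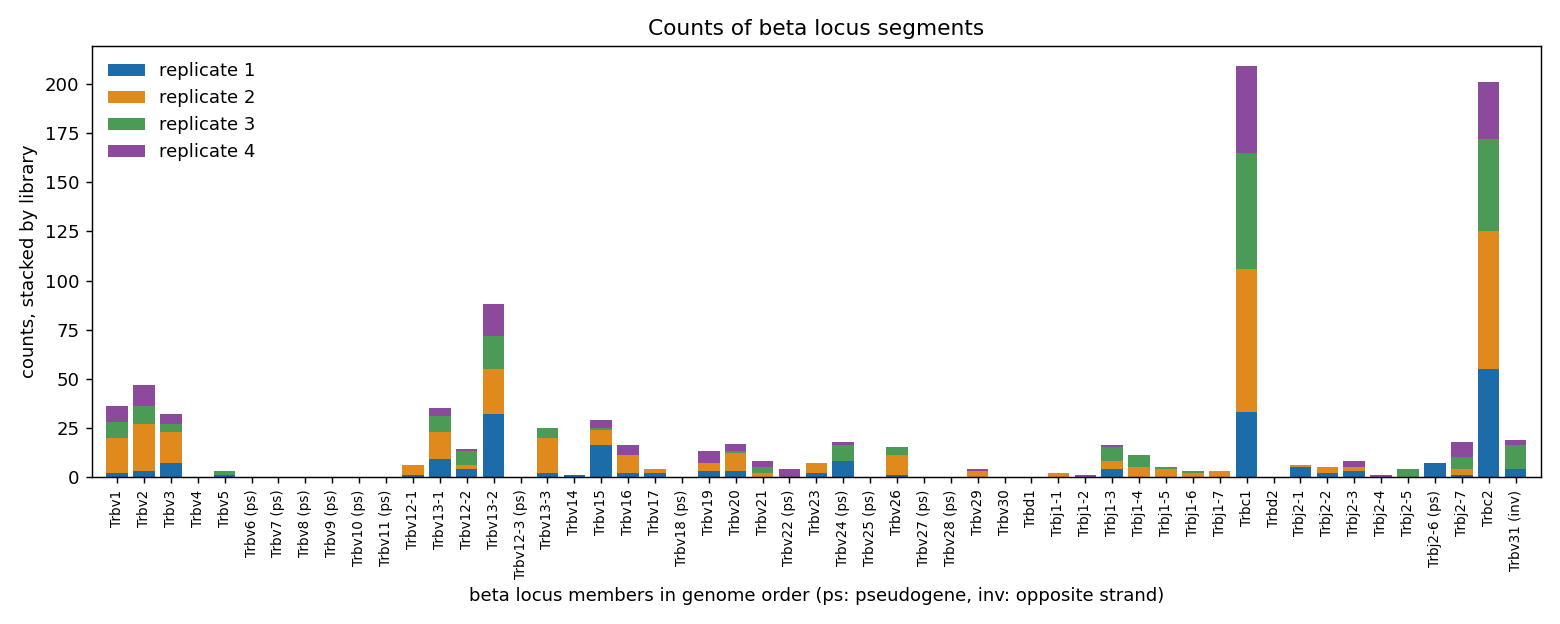
Counts (y axis), stacked by library, of the 53 beta chain segments in genome order (x axis), where ps marks a pseudogene and inv the inverted segment. The tallest bars are Trbc1 with 209 and Trbc2 with 201 counts, followed by Trbv13-2 with 88, and the row of pseudogenes from Trbv6 to Trbv11 is at 0.

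Alpha V segments held nearly as many counts, spread over far more segments. They had 92, 128, 126 and 82 counts in replicates 1 to 4, and 55 of 128 had a count. Trav13n-4 had 14, 6, 26 and 11 counts, or 26.1 ± 15.2 TPM (SD, n = 4). Trav9-1 had 12, 19, 18 and 7 counts, or 26.5 ± 8.07 TPM. Trav9-2 had 19, 9, 17 and 11 counts, or 19.4 ± 5.95 TPM. These 3 were among the top 5 Trav segments in every library.

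Trav9n-1 had 12, 21, 2 and 10 counts and is annotated as a V pseudogene. With it, the 4 leading Trav segments held 214 of 428 counts (50%). The Trav9 family as a whole held 182 counts in 6 of 11 members, with 52, 57, 37 and 36 in replicates 1 to 4. The Trav13 family held 93 counts in 8 of 12 members, with 25, 10, 37 and 21. Trav9 came to 23.2 ± 2.63 CPM and Trav13 to 12.4 ± 6.27 CPM (SD, n = 4), with Trav13 lowest in replicate 2. A count was present for 50 of 108 alpha V genes and 5 of 20 alpha V pseudogenes. Per kilobase these held 8.77 and 10.5 counts, and 45 of the 61 pseudogene counts lay in Trav9n-1. The pseudogenes were thus no sparser than the V genes in the alpha chain, on counts that rest mainly on this 1 segment.

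V profiles were compared between libraries by rank. Over the 22 Trbv segments with a count, Spearman's rho between pairs of libraries ran from 0.35 to 0.58, with a median of 0.43. Over the 55 Trav segments with a count it ran from 0.10 to 0.45, with a median of 0.30. These are descriptions over segments, most of which had few counts, and all points of a pair share the depth of its libraries. Whether counting error alone would give such values was not tested.

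Mouse alpha V segments lie in duplicated blocks, whose members carry a d or an n in their names. A count was present for 6 of 39 segments with a d, 11 of 34 with an n and 38 of 55 with neither. They held 40, 143 and 245 counts in that order. To see how much of each segment could be told apart, each transcript was split into windows of 50 bases, and each window was looked for in the transcripts of all other genes on either strand. In 47 alpha V segments at least 90% of the windows occurred in another gene, and 5 of these 47 (10.6%) had a count, 24 counts in all. Of the 71 with some sharing below that, 43 (60.6%) had a count, 382 in all. Of the 10 with no shared window, 7 had a count.

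Segments with near copies elsewhere were thus mostly listed at 0. Trav9d-2, Trav9n-2, Trav9d-3 and Trav9n-3 shared every window and had no count, while Trav9-1, with 59.6% of its windows shared, had 56. Multi-mapping fragments were not counted under the settings in the file headers, so a 0 at such a segment does not show that it is unused. Of the 5 with counts, Trav13d-3 had 11 and Trav13n-3 had 9, and both lie wholly within exons of antisense genes, Gm30214 and Gm43650. Leaving the overlapping antisense gene aside, Trav13n-3 shared 82.6% of its windows with genes elsewhere. The others were Trav6-6 with 2 counts, Trav11 with 1 and Trav7n-6 with 1. Beta V segments seldom share sequence: 28 of 35 had no shared window, and 18 of these had a count.

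**Figure D3:**
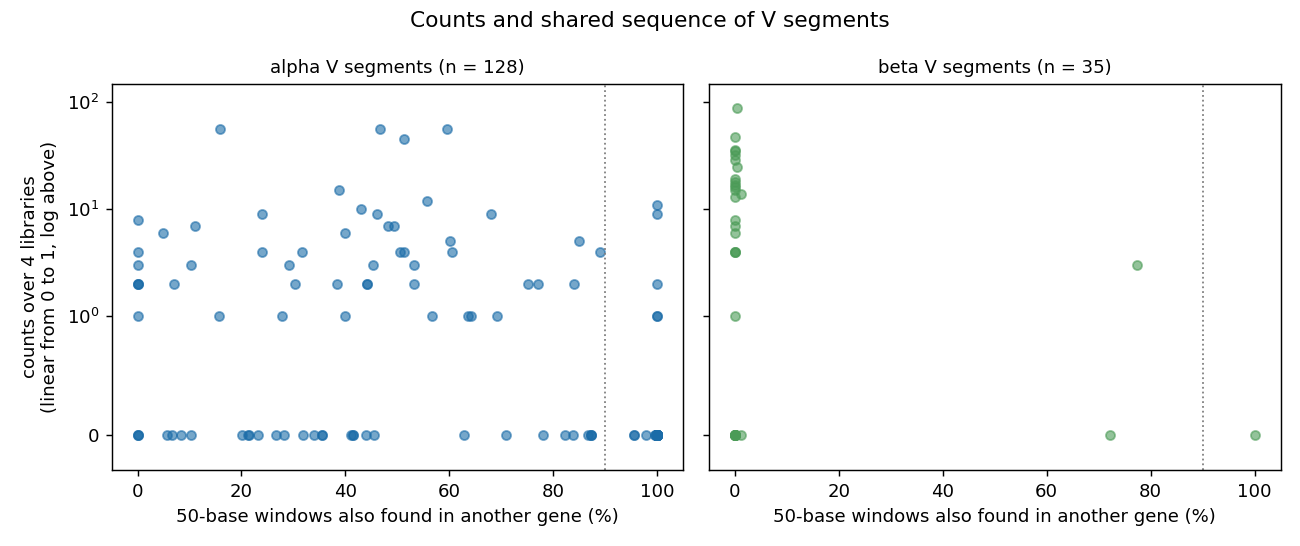
Counts over the 4 libraries (y axis, linear up to 1 and log above) of each alpha V segment (left, n = 128) and beta V segment (right, n = 35) against the percentage of its 50-base windows found in another gene (x axis). The dotted line marks 90%, to the right of which 42 of 47 alpha V segments lie at 0.

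V and C exons of a chain lie on the same mRNA, so their counts can be set side by side per length. Fragments reaching from either into another segment overlap several genes and were left out, and the size of that loss was not measured. Summed over all Trav exons, used or not, V counts were 1.74 ± 0.29 TPM as a density, against 66.0 ± 13.5 TPM for Trac. The log2 ratio averaged -5.15 ± 0.11 and was negative in 4 of 4 libraries. Summing the TPM of the segments instead gave 208 ± 34.7 TPM for Trav and a log2 ratio of 1.66 ± 0.09, the other direction. For the beta chain the density ratio was -3.02 ± 0.23 and the ratio of summed TPM was 0.97 ± 0.24. The direction therefore depended, in both chains, on whether V counts were divided by the pooled length of all segments or by each segment's own length and then added. Leaving out the 47 alpha V segments with near copies left the density ratio negative, at -4.61.

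J segments are 29 to 72 bases long, shorter than a sequenced fragment. Their counts per length are therefore not levels that can be set beside V or C exons. In addition, a fragment reaching from a J segment into a V or C exon overlaps several genes and was left out. All 14 beta J segments had a count, 90 in all, including the pseudogene Trbj2-6. Trbj2-7 had 1, 3, 6 and 8 counts in replicates 1 to 4, and Trbj1-3 had 4, 4, 7 and 1. Trbj1-4 had 0, 5, 6 and 0. No beta J segment led in every library.

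Of the 60 alpha J segments, 25 had a count, 98 in all. Traj41 had 0, 3, 11 and 0 counts, Traj25 had 5, 1, 4 and 0, and Traj7 had 2, 1, 7 and 0. Replicate 4 had no count in any of these 3 and 12 in all alpha J segments, against 36 in replicate 3. J segments of all chains with the letters searched had counts in 30 of 56 cases (148 counts), and those without in 9 of 24 (40 counts). Over all 80 J segments 39 (48.8%) had a count. The 24 include 9 pseudogenes, 4 of them with a count, and 4 gamma J segments, all at 0. As a density over all exons, alpha J exceeded alpha V by 1.48 ± 0.41 on the log2 scale in 4 of 4 libraries, with the limit of length just given. With TPM summed over segments it was 0.59 ± 0.41.

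None of the 4 D segments, at most 16 bases long, had a count. Segments of semi-invariant receptors, which some T cells share across animals, had few counts or none, as did most segments. Of all 268, 141 had no count and 55 had 1 to 3, and of the 60 alpha J segments 35 had none. Trav11 and Traj18, joined in natural killer T cells, had 1 and 0 counts. Trav1 and Traj33, joined in mucosal-associated invariant T cells, had 2 and 0. Traj18 (chr14:54200777-54200842, plus strand) is 66 bases long, with its motif in capitals: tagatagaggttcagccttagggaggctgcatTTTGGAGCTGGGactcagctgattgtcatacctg. Of 3 further natural killer T cell markers, Zbtb16 and Klrb1c had no count, against 66.4% of all genes. Slamf6 had 4.60 ± 0.87 TPM. At this depth a low use of these receptors was not detectable. All 50-base windows of Trav11 also occur in other genes, so its fragments would mostly be left uncounted at any depth.

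The delta and gamma segments belong to gamma-delta T cells, but delta V segments lie inside the alpha locus. Delta V segments held 133 counts, and 89 of them lay in Trdv2-2 (chr14:53960944-53961602), the V segment with the most counts of any chain, 1 more than Trbv13-2. Trdv2-2 had 32, 20, 27 and 10 counts in replicates 1 to 4, or 42.1 ± 14.3 TPM (SD, n = 4). By mean TPM it stood below Trbv13-2, at 49.6 ± 11.5 TPM. Per length Trdv2-2, with 397 exon bases, was far above Trdc, with 3865 exon bases and 3.10 ± 2.52 TPM. In counts the 2 were closer, 89 against 64, and in replicate 3 Trdc was higher, at 34 against 27. Trdv5 had 37 counts, Trdv1 had 5, Trdv2-1 and the pseudogene Trdv3 had 1 each, and Trdv4 had none. Neither delta J segment had a count.

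Of the 15 gamma segments, Tcrg-C1 and Tcrg-V4 had 1 count each and 13 had none. Of the 7 gamma-delta T cell markers found, 4 had no count, against 66.4% of all genes. Trdc alone reached 1 TPM, against 21.6% of all genes. Summed over the list, the markers had 2.53 to 6.74 TPM per library. The 133 delta V counts thus stood beside 64 counts at Trdc, 2 at gamma segments and 0 at delta J segments, and their source was not tested.

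Inverted segments number 5. They lie on the other strand than most constant genes of their locus. Trbv31 and Trdv5 lie opposite to and beyond their constant gene and are joined by turning round the DNA in between, while the other 3, Tcrg-C2, Trgj2 and Trgv2, share 1 strand. Trbv31 (chr6:41557691-41558452, minus strand) had 4, 0, 12 and 3 counts, or 9.04 ± 9.27 TPM (SD, n = 4). Per length it stood at 1.31 times the other Trbv segments, pseudogenes included, over all counts (95% interval 0.779 to 2.07, counting error only). Per kilobase Trbv31 held 45.5 counts, against 48.7 for the other Trbv segments without pseudogenes. The log2 ratio per library averaged -0.995 ± 3.84, negative because replicate 2 had no Trbv31 count, and was positive in the other 3. Without replicate 2 it was 0.87, so that library set its direction.

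Trdv5 (chr14:54148662-54149294, minus strand) overlaps Trdc by 207 bases. It had 15, 10, 10 and 2 counts over 438 exon bases, or 15.4 ± 7.93 TPM, against 3.10 ± 2.52 TPM for Trdc over 3865 exon bases. In counts Trdv5 was below Trdc, 37 against 64. Per length Trdv5 was 5.10-fold above Trdc (95% interval 3.31 to 7.76, counting error only). The log2 ratio was 2.37 ± 0.96, positive in 4 of 4 libraries (exact two-sided sign-flip permutation, p = 0.125, the smallest possible). The inverted gamma segments Tcrg-C2, Trgj2 and Trgv2 had no count.

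The alpha and delta locus (chr14:52427928-54224206) holds 200 receptor segments, 199 on the plus strand, and 26 other genes. Of these 26, C920008G01Rik and B230359F08Rik are annotated as receptor V genes but not named as such, and both had no count. Receptor segments on the plus strand held 1002 counts and Trdv5, on the minus strand, 37. The 9 other genes on the plus strand held 20 counts, and the 17 on the minus strand held 1270. Minus-strand genes that are not receptor segments thus held more counts than all receptor segments of the locus. In the beta locus (chr6:40891229-41558452) the 28 other genes, most of them trypsin genes and pseudogenes, held 23 counts in all, against 941 for the 53 receptor segments.

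The largest of these minus-strand genes was the antisense gene Gm43434 (chr14:54128298-54146287), which overlaps Trdc by 96 bases. It had 237, 252, 189 and 132 counts in replicates 1 to 4, or 228 ± 22.8 TPM, against 10, 16, 34 and 4 counts for Trdc. The antisense gene was above Trdc in every library. Gm43647, another antisense gene, had 51, 56, 39 and 28 counts and overlaps Trdv2-2 by 105 bases and Trdv2-1 by 192. Gm43650, which covers Trav13n-3, had 22, 15, 12 and 11 counts, against 4, 0, 2 and 3 for Trav13n-3. Per kilobase over all libraries that was 43.4 counts for Gm43650 and 26.7 for Trav13n-3. These antisense genes were named because they had at least 20 counts. Below that threshold, Gm30214, which covers Trav13d-3, went the other way, with 2 counts against 11 for Trav13d-3. Per kilobase that was 1.45 against 28.1. Gm31887, which overlaps Tcrg-V4 by 79 bases, had 10 counts against 1 for Tcrg-V4.

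Whether counts at Trdc, Trdv2-2, Trav13n-3 and the other overlapping segments bear on these antisense genes, or the reverse, was not tested. Without the 7 segments that overlap a gene of the other strand, receptor segments kept 1770 of 1982 counts. The processed pseudogene Gm43551, chosen after its values were seen, overlaps no receptor segment and had 64, 52, 63 and 17 counts on the minus strand.

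**Figure D4:**
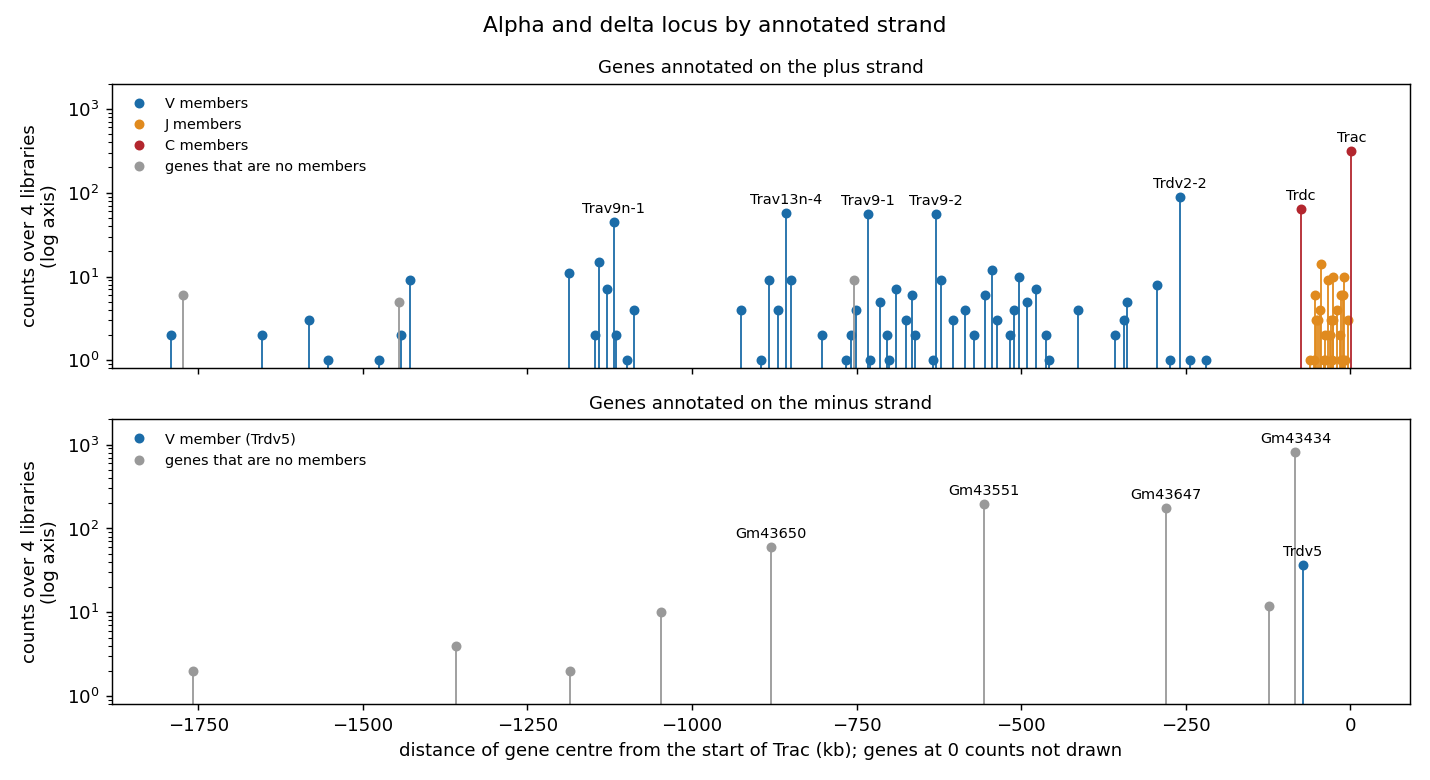
Counts over the 4 libraries (y axis, log) of genes in the alpha and delta locus by the distance of the gene centre from the start of Trac in kb (x axis), for plus-strand genes (top) and minus-strand genes (bottom), with genes at 0 not drawn. Receptor V segments spread along the top panel up to Trdv2-2 with 89 counts, and in the bottom panel Gm43434 stands highest with 810.

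The spread between libraries was compared with the trend over all genes by edgeR's quasi-likelihood dispersion. Only 5 receptor segments had enough counts to enter, namely Trac, Trbc1, Trbc2, Trbv13-2 and Trdv2-2. None was more variable than the trend (edgeR quasi-likelihood upper-tail F test, Benjamini-Hochberg adjusted p of 0.995 for each), against 16 of 5755 genes (0.278%), and none of the 5 had an unadjusted p under 0.05. With no filter on low counts, none of 127 was called, against 0.0941% of genes. At such low background shares no call was to be expected among so few segments, so its absence does not set them apart from other genes.

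Among thinly counted segments, some had counts in only 1 library. Of 42 receptor segments with 5 to 20 counts, 4 (9.52%) had all of them in 1 library, against 6.23% of all genes in that range. These were Traj32 with 9 counts in replicate 2, Trbj2-6 with 7 and Traj11 with 6 in replicate 1, and Trdv1 with 5 in replicate 3. Their number was near the background share.

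The chains that carry the receptor signal and the co-receptors were taken as a list. Of 9 receptor complex genes, 8 reached 1 TPM, against 21.6% of all genes and 34.0% of protein-coding genes. Cd247, the zeta chain, had the most, 174 ± 31.2 TPM, and overlaps exons of Pou2f1 on the other strand. Cd3g had 23.1 ± 7.42 TPM and Cd3e 10.4 ± 3.77 TPM (SD, n = 4). The CD3 chains other than zeta lay below Trac at 66.0 ± 13.5 TPM, and these values are subject to the same limit of strand.

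Of 16 recombination and pre-receptor genes, 9 reached 1 TPM, against 21.6% of all genes and 34.0% of protein-coding genes. No count was present for 3 of the 16, against 66.4% of all genes. The 3 were Rag1 and Rag2, which cut the DNA at receptor segments, and Ptcra, which pairs with the beta chain before alpha is made. Dntt, which adds bases at the joints, had 15, 33, 31 and 23 counts, or 9.45 ± 3.05 TPM. Xrcc6, a DNA end-binding repair protein, had 49.0 ± 10.4 TPM and overlaps Desi1 on the other strand. Of the 5 thymocyte markers, Rag1, Rag2 and Ptcra were at 0, against the same 66.4% of all genes. Dntt and Cd1d1 alone of the 5 had counts.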

How the data were processed

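Per the file headers, the authors aligned the reads with STAR to mm10 and counted fragments over GENCODE M13 exons with featureCounts 1.4.6-p4. Both ends had to align, and the strand setting was 1. That command holds no option for fragments that map to several places or overlap several genes, so these were left out. The deposited values used were these raw counts, 1 table per sample, and exon lengths, with no normalization by the authors. The kit is not stated in those sources.

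TPM, CPM and log2 ratios (pseudocount 0.1 TPM) were computed in Python 3.11.15. Ratios of 1 gene to another were tested by exact two-sided sign-flip permutation over 4 libraries. For sums and densities only values and directions are given. Variability was fitted with edgeR 4.0.16 in R 4.3.3 (filterByExpr, TMM, no covariate) and checked on simulated data, with DESeq2 1.42.0 size factors as an alternative. Intervals are exact (Clopper-Pearson).

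By rule, all constant genes, the 10 V, 5 J and 2 D segments with the most counts, inverted and semi-invariant segments, opposite genes with at least 20 counts and 2 lists were named. Other named genes were chosen after their values were seen. Segments and lists were chosen with earlier results of these data known. Sequences are from GENCODE M21 on GRCm38, in which all 268 segments have the exons of the tables.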

Additional observations from a re-analysis of the deposited data

Results flagged for a closer look

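In a group of 4 libraries, a library was marked when its gap to the nearest other library divided by the whole range exceeded Dixon's 95% critical value. Of 59 values checked, 6 were marked, and chance marks about 1 in 20. Trbc1 was lowest in replicate 1, at 15.5 CPM, against 31.0, 30.7 and 30.3 CPM in replicates 2 to 4. The log2 ratio of beta V genes to beta V pseudogenes was highest in replicate 2, at 7.15, against 2.36, 1.97 and 2.37 in replicates 1, 3 and 4, because no pseudogene had a count there. The log2 ratio of Trbc1 and Trbc2 to the gamma constant genes was lowest in replicate 2, at 7.34, because the 1 gamma count lay there. The remaining 3 rest on 1 or 2 counts. Tcrg-C1 had 0.425 CPM in replicate 2, Trav11 had 0.520 CPM in replicate 3 and Trav1 had 0.850 CPM in replicate 2, and each was at 0 in the other libraries.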

How the results depend on the processing

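Over 81 recomputed values, 75 kept their direction and side of the threshold or their size, 4 changed direction and 2 moved. With TPM summed over segments, an alternative chosen after seeing the data, the V to C log2 ratio was 1.66 for alpha, against -5.15 as a density, and 0.97 for beta, against -3.02. The density divides pooled counts by the pooled length of all segments, while the sum divides each segment by its own length and adds the results. Leaving out replicate 1 moved Trbc1 over Trbc2 to 0.22, and the leave-one-out range was -0.23 to 0.22. Leaving out replicate 2 moved Trbv31 over other Trbv to 0.87, with a range of -2.05 to 0.87. Alpha J over V was 0.59 with summed TPM, against 1.48. Segments with a count numbered 127, but 23 with a count in every library and 34 with at least 10 counts. Trac over Trdc ran from 4.22 to 5.04 without 1 library each, and was 4.19 with a pseudocount of 1 TPM and 2.65 as TMM-scaled CPM, which is not per length. No paired analysis was possible because there was 1 group. A limit on every J, D and gamma value is that a count of 0 allows up to 3 counts per library. The part of depth in these values was not tested. The loss of fragments overlapping several genes limits the V, D, J and C values too, and its size was not tested.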
